A study of Mus musculus with 6 samples.

Results

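Chemokines are small secreted proteins that guide leukocytes, and a set of 37 mouse genes for chemokines and their receptors was followed here in macrophages grown from bone marrow of mice lacking Bach1. The set was taken as a fixed list of symbols and holds 14 CC ligands, 13 CXC ligands, the CX3C ligand Cx3cl1 and 9 receptors, out of 20018 genes with a named probe on the array. A probe could be named for 36 of them, and 34 had a probe that stood well above background on 3 or more of the 6 arrays, as 15736 genes had in all. Of these 34 members, 31 were well above background on all 6 arrays. Ccl11 and Cxcl13 had a probe that was not well above background on any array, and Cxcl11 was not analysed here.

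The arrays compared Bach1 knockout (KO) mice with wildtype (WT) mice, both C57BL/6 and 11 weeks old, with 3 independent mice of each genotype and 1 array per mouse. The mice keep their labelled numbers, KO 947, 948 and 949 and WT 1, 2 and 3, and KO 949 and WT 3 were labelled female and the others male. Marrow from both genotypes was cultured for 5 days with 10 ng/mL GM-CSF, a growth factor that drives marrow progenitors towards macrophages and also towards cells of dendritic type. The sources used here do not describe how the Bach1 allele was made. Bach1 is a heme-binding transcriptional repressor, and the stated subject of the study is how it acts in macrophages through heme and iron balance.

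CC and CXC chemokines are named for the spacing of their first cysteines, and all of them signal through receptors coupled to inhibitory G proteins. One ligand often serves several receptors and one receptor several ligands. In marrow-derived phagocytes, Ccl2 and Ccl7 call in monocytes through Ccr2, the Cxcl1 group calls in neutrophils through Cxcr2, Cxcl9 and Cxcl10 call in T cells through Cxcr3, and Ccr7 takes maturing dendritic cells to lymph nodes. Many ligand genes lie side by side on their chromosomes and are switched on by NF-kB and interferon-activated factors.

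For 3 of the 7 members whose difference passed the test below, a RefSeq promoter was at hand. None was at hand for Ccl2, Ccl7, Cxcl16 and Ccr7. The 250 bases before each gene start are shown because Bach1 with its small Maf partners binds a sequence built around the AP-1 letters, and because these genes moved in the same direction. Capitals mark matches, on either strand, to the AP-1 letters TGAGTCA, to the longer Bach-Maf core GCTGAGTCA, which contains them, to the interferon response core GAAANNGAA and to the kappa B consensus. The sequences are on the strand of the gene, 5′ to 3′, in build GRCm38.p6: Cxcl10 at chr5:92348890-92349139 on the minus strand, and Ccl22 at chr8:94745434-94745683 and Cx3cl1 at chr8:94771930-94772179 on the plus strand.
Cxcl10: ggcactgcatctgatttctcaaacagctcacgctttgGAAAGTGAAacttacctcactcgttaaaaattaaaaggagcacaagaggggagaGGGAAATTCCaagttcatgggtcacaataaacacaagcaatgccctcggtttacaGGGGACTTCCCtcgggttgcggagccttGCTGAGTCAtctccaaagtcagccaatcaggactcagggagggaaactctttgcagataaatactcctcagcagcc
Ccl22: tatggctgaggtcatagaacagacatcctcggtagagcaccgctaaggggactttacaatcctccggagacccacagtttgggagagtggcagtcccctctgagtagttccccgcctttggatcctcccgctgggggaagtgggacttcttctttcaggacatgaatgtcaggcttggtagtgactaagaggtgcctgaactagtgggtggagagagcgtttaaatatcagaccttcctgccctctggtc
Cx3cl1: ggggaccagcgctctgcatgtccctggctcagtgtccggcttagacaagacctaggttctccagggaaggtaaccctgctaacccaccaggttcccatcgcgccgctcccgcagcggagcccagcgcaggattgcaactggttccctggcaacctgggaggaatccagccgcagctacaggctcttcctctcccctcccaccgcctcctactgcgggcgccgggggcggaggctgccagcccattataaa
The Cxcl10 window held an interferon response core 213 to 205 bases before the start and kappa B matches at 159 to 150 bases and, overlapping each other, at 104 to 94 bases. Its Bach-Maf core lay 76 to 68 bases before the start. None of the searched letters stood in the Ccl22 or Cx3cl1 windows. Over 32851 RefSeq promoters of the same length, GCTGAGTCA occurred in 128 (0.390%), TGAGTCA in 1466 (4.46%), GAAANNGAA in 2342 (7.13%) and the kappa B consensus in 2382 (7.25%). Among the 27 members with a promoter, GCTGAGTCA was found in 1, Cxcl10, and TGAGTCA in 2, Cxcl10 and Ccr3. GAAANNGAA was found in 5 (Ccl3, Ccr2, Cxcl9, Cxcl10 and Cxcl14) and kappa B in 8 (Ccl9, Cxcl1, Cxcl2, Cxcl3, Cxcl10, Ccr1, Ccr3 and Ccr6). A match in letters is not a measured binding site.

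Values below are levels, the log2 signal of a probe over its array's 75th percentile, and differences are KO minus WT with their standard error from limma. Adjusted p-values come from limma over all 15736 genes with Benjamini-Hochberg adjustment and a threshold of 0.05. Levels of different probes cannot be set against each other, so only the same gene is compared between genotypes.

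Ccl2 and Ccl7 were higher in KO cells, and Ccl22, Cxcl10, Cxcl16, Cx3cl1 and the receptor Ccr7 were lower. These 7 of the 34 tested members passed the threshold, where 3.41% of all tested genes did. The 2 that rose stand beside 1.14% of all genes that rose, and the 5 that fell beside 2.27% that fell. The other 27 tested members did not pass. With 1 array left out in turn, 3 members passed without WT 1 or without WT 2, 4 without WT 3 or without KO 948, 5 without KO 949 and 9 without KO 947; Ccl7, Cxcl16 and Ccr7 passed in all 6 of these fits. Differences were above 0 in 15 members and below 0 in 19, with a median of -0.11, beside -0.01 over all genes. In 19 members the 3 KO arrays and the 3 WT arrays did not overlap, which was so for 26.9% of all genes. KO lay wholly above WT in 7 of them (13.4% of all genes) and wholly below in 12 (13.5% of all genes). An unadjusted p under 0.05 was seen for 19 members and for 20.4% of all genes.

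**Figure D1:**
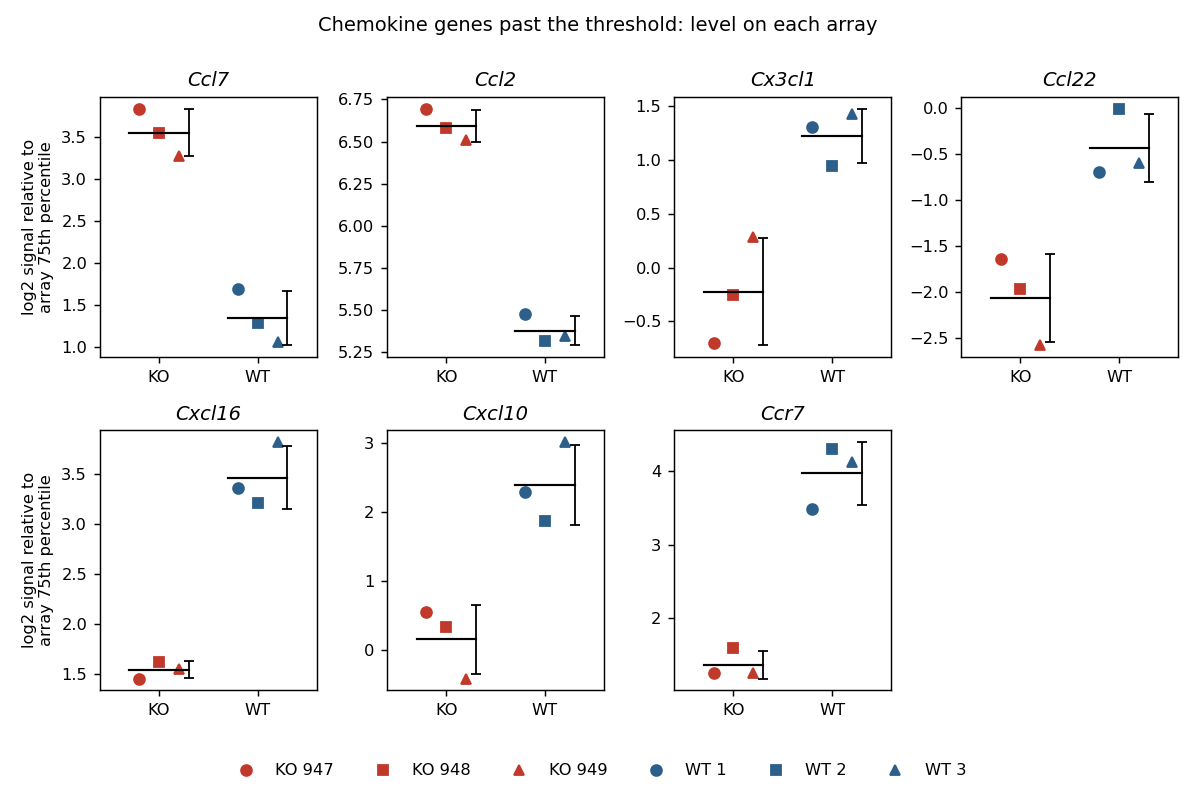
Levels of the 7 members past the threshold (log2 signal over the array's 75th percentile) in KO and WT cultures, 1 panel per gene with its own vertical scale, 1 point per mouse and bars for the mean ± SD. In each panel the 3 KO points and the 3 WT points do not overlap. Ccl2 and Ccl7 are higher in KO, and the other 5 are lower.

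Every KO array had a smaller share of spots well above background than every WT array, 62.5% to 65.1% in KO against 70.3% to 73.2% in WT, and no spot was saturated. KO 947 lay on the slide of the 3 WT arrays, while KO 948 and 949 lay on another slide, so with slide as a block KO 947 alone sets the difference. Without KO 947 the genotypes share no slide, so the calls of that fit cannot tell genotype from slide. The probe for Bach1 read 1.45, 2.00 and 2.23 in KO and 2.21, 2.48 and 2.59 in WT, a difference of -0.54 ± 0.24 (limma adjusted p = 0.262), and since no source used here says where the probe lies relative to the deletion, it is no check of genotype. The 3 arrays per genotype limit the precision of every value. In bulk RNA, fewer cells of a type and less RNA per cell cannot be told apart, which holds for every member below.

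The labelled cell type was checked against marker lists. Of 10 tested macrophage markers, Adgre1 and Csf1r among them well above background on all arrays, 2 passed, both higher in KO (Mrc1 by 1.07 and Marco by 1.89). Of all tested genes 1.14% passed as higher and 2.27% as lower. Differences were above 0 in 6 of the 10 markers and below 0 in 4, with a median of 0.17. C1qa, at -1.29, did not pass (limma adjusted p = 0.0604), though all its KO arrays lay below all its WT arrays. The summed signal of the 10 markers, on a linear scale relative to the 75th percentile, was 580 to 623 in KO and 427 to 517 in WT. In such a sum the brightest genes, Marco among them, weigh most. The dendritic cell list leaned lower in KO. All 15 tested markers had a difference below 0 (median -0.68) and 4 passed, Cd83 (-1.99), Ciita (-1.89), H2-Aa (-0.98) and Cd209a (-1.45), with a summed signal of 474 to 529 in KO and 645 to 798 in WT. The defining dendritic markers Zbtb46 (-0.23) and Flt3 (-0.72) were above background on all arrays and did not pass. Cd83 and Ciita passed whichever single array was left out, though Cd83 did not with slide as a block (limma adjusted p = 0.0587), while Mrc1, Marco, H2-Aa and Cd209a did not pass without WT 1, WT 2, KO 948 or KO 949. The part of these markers in the results below was not tested.

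The monocyte-attracting CC ligands gave both rises. Ccl7, which acts on Ccr2 and other CC receptors, had levels of 3.83, 3.54 and 3.28 in KO 947, 948 and 949, against 1.69, 1.29 and 1.05 in WT 1, 2 and 3. The lowest KO array stood well above the highest WT array. The difference was 2.21 ± 0.23, or 4.62-fold higher in KO (limma adjusted p = 0.0103). Ccl2, the main monocyte chemoattractant and ligand of Ccr2, had levels of 6.70, 6.58 and 6.51 in KO and 5.48, 5.32 and 5.35 in WT. Replicates of either genotype lay within a narrow band and the bands were far apart. The difference was 1.21 ± 0.14, or 2.32-fold (limma adjusted p = 0.0114), and the call was lost, at adjusted p-values up to 0.0561, without WT 1, WT 2 or KO 948. Ccl12, a mouse relative of Ccl2 that also binds Ccr2, read 0.56, 0.91 and 0.54 in KO and -0.03, -0.36 and 0.25 in WT. Its groups did not overlap, yet its difference of 0.72 ± 0.21 did not pass (limma adjusted p = 0.119). Ccl8, which lies next to Ccl12, stood on the other side, at -3.40, -3.73 and -3.86 in KO and -1.83, -2.43 and -3.05 in WT, with a difference of -1.23 ± 0.32 that did not pass (limma adjusted p = 0.0933). Ccr2, the receptor shared by Ccl2, Ccl7 and Ccl12, overlapped between genotypes, with a mean of 1.45 ± 0.23 in KO and 1.70 ± 0.25 in WT (SD, n = 3 each) and a 95% interval of the difference from -0.71 to 0.22.

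Ccl3, Ccl4, Ccl5, Ccl6 and Ccl9, a group of inflammatory CC ligands, did not share a direction. Ccl3 had levels of 4.02, 4.31 and 4.63 in KO and 3.33, 3.54 and 3.39 in WT. Each KO value exceeded each WT value, and the difference of 0.90 ± 0.19 missed the threshold (limma adjusted p = 0.0604). It was 0.60 with slide as a block. Without KO 947 it passed (limma adjusted p = 0.0343), in a fit where genotype and slide coincide. Ccl4, its close relative, overlapped, at 5.40, 6.27 and 6.35 in KO and 6.32, 6.19 and 5.85 in WT. Ccl5, which also attracts T cells, had levels of 2.89, 4.71 and 2.40 in KO and 5.12, 5.22 and 5.94 in WT. KO 948 stood apart from the other KO arrays and close to WT. The difference was -2.09 ± 0.59 (limma adjusted p = 0.115), and without KO 948 it was -2.78 (limma adjusted p = 0.0424). Ccl6 and Ccl9, ligands of Ccr1 that mouse macrophages make, differed by -0.06 ± 0.18 and 0.07 ± 0.16, with 95% intervals from -0.49 to 0.37 and from -0.30 to 0.44. Ccr1 itself averaged 1.34 ± 0.66 in KO and 0.61 ± 0.74 in WT (SD, n = 3 each), and its arrays overlapped.

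Ccl22 and Ccl17, both ligands of Ccr4 on T cells, were lower in KO on every array, and Ccl22 passed the test. Ccl22 had levels of -1.64, -1.97 and -2.57 in KO and -0.69, -0.01 and -0.59 in WT. Its highest KO array lay below its lowest WT array. The difference was -1.63 ± 0.30, or 3.09-fold lower in KO (limma adjusted p = 0.0416). The call held without KO 947, where genotype and slide coincide, and was lost without any other array, at limma adjusted p-values up to 0.118. Ccl17 had levels of 6.78, 6.72 and 6.82 in KO and 7.50, 7.31 and 7.05 in WT, so the KO arrays were nearly level and the WT arrays more spread. Its difference was -0.51 ± 0.16 (limma adjusted p = 0.144). Ccr4 stood well above background on 1 WT array and no KO array, and was not tested.

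Among the remaining CC ligands, Ccl24, an eotaxin acting on Ccr3, differed by -0.11 ± 0.31, and its KO arrays, at 0.88, 0.07 and -0.29, spanned those of WT, at 0.14, 0.51 and 0.34. Ccl25, the ligand of Ccr9, had a mean of 1.54 ± 0.12 in KO and 1.00 ± 0.34 in WT (SD, n = 3 each), a difference of 0.54 ± 0.21 that did not pass (limma adjusted p = 0.202). A second Ccl25 probe, for a non-coding transcript, overlapped between genotypes and leaned the other way, at -0.31. The CC ligands gave 3 calls among 13 tested, beside 3.41% of all genes, 2 higher and 1 lower, with a median difference of -0.06. Their groups did not overlap in 9 of 13, beside 26.9% of all genes, with 5 higher and 4 lower.

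**Figure D2:**
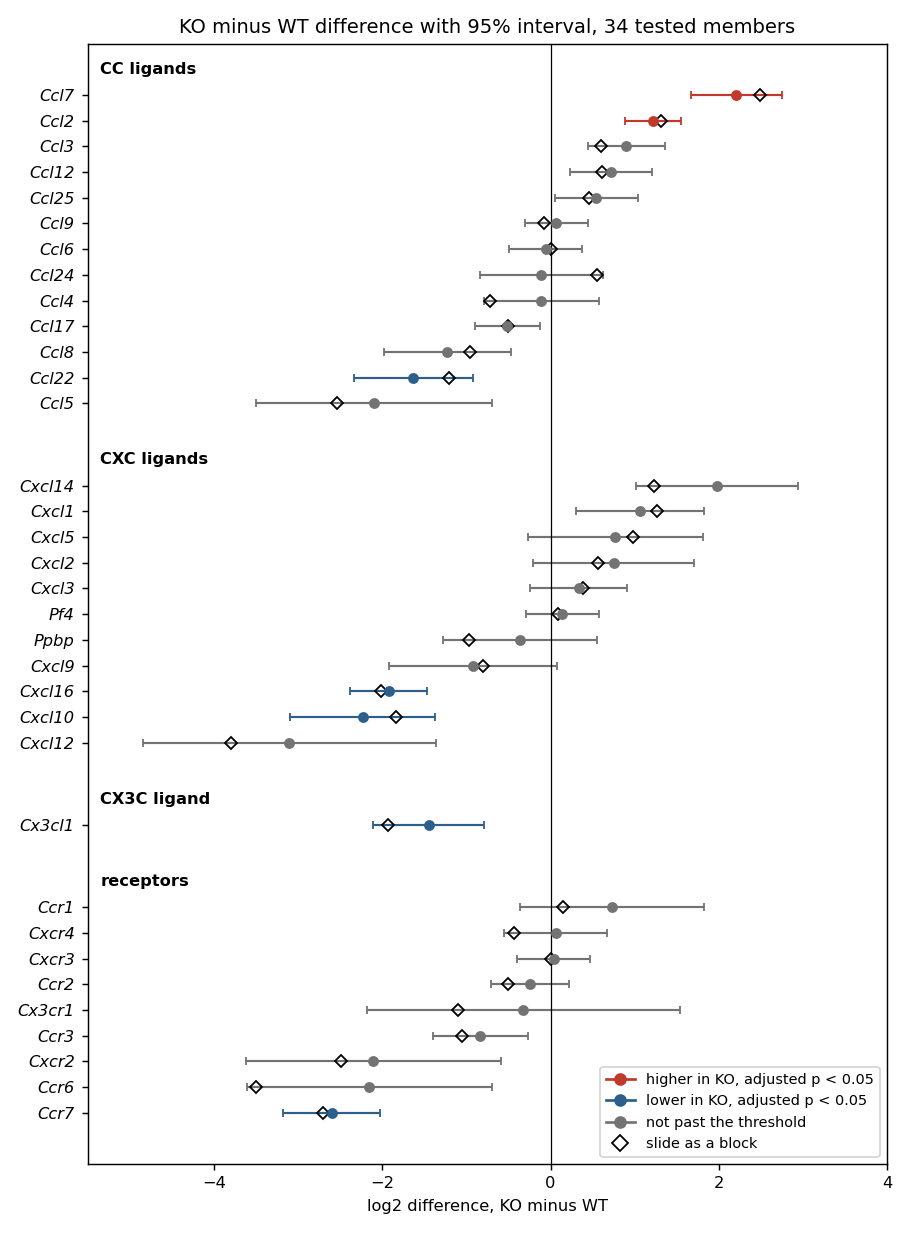
KO minus WT differences on the log2 scale of the 34 tested members, by class, with 95% intervals from limma; red (higher) and blue (lower) marks are members past the adjusted threshold, grey marks are not, and open diamonds give the difference with slide as a block. Among members well above background on all arrays they run from -2.60 for Ccr7 to 2.21 for Ccl7. The mark for Cxcl12 is its fitted value against KO arrays that were not well above background, and within the CC and CXC ligands members lie on both sides of 0.

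In the CXC ligands, Cxcl16 and Cxcl10 fell and none rose. Cxcl16, made as a membrane-anchored protein that binds Cxcr6 and can also take up oxidised lipoprotein, had levels of 1.45, 1.62 and 1.55 in KO and 3.36, 3.21 and 3.82 in WT. The KO arrays lay within a narrow band far below all 3 WT arrays. The difference was -1.92 ± 0.19, or 3.79-fold lower in KO (limma adjusted p = 0.0103). Cxcr6 was well above background on no KO array and 2 WT arrays and was not tested. Cxcl10, an interferon-induced ligand of Cxcr3 whose promoter is printed above, had levels of 0.54, 0.33 and -0.41 in KO and 2.28, 1.87 and 3.01 in WT. Its groups were apart, with KO 949 the lowest and WT 3 the highest, the 2 arrays labelled female. The difference was -2.23 ± 0.36, or 4.69-fold lower (limma adjusted p = 0.0312), and -1.64 on the arrays labelled male (limma adjusted p = 0.0628). Leaving out any array other than KO 947 also ended the call, at adjusted p-values up to 0.109. Cxcl9, the other measured Cxcr3 ligand, had levels of -4.43, -4.83 and -4.40 in KO and -3.02, -4.63 and -3.25 in WT. WT 2 fell among the KO arrays, and the difference of -0.92 ± 0.42 did not pass (limma adjusted p = 0.278). A second Cxcl9 probe, well above background on 1 KO array and 2 WT arrays, gave -2.14, with overlap.

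The neutrophil-attracting ligands Cxcl1, Cxcl2, Cxcl3 and Cxcl5, which act on Cxcr2, had differences of 1.06 ± 0.32, 0.75 ± 0.40, 0.33 ± 0.24 and 0.77 ± 0.44, and none passed. Cxcl1 had levels of -1.51, -1.92 and -1.72 in KO and -3.49, -2.32 and -2.53 in WT, without overlap (limma adjusted p = 0.128). The arrays of Cxcl2, Cxcl3 and Cxcl5 overlapped. WT 1 was the lowest of all arrays for each of these 4 ligands, at -3.49, -1.81, 3.13 and -3.25. Their spread was smaller among KO arrays, with SDs of 0.21, 0.21, 0.05 and 0.26 in KO and 0.62, 0.83, 0.46 and 0.91 in WT, a difference in spread that was not tested. Cxcr2, their receptor, had levels of -6.03, -4.38 and -6.53 in KO and -3.96, -4.09 and -2.56 in WT. It was well above background on 1 KO array and on all WT arrays, and its difference of -2.11 ± 0.64 did not pass (limma adjusted p = 0.132). Granulocyte markers stood beside it as follows. Of 12 tested, 1 passed, S100a9, which fell by 1.01, where 2.27% of all genes passed as lower and 1.14% as higher. That call was lost in limma with slide as a block and when any array but KO 947 was left out. Differences were below 0 in 10 markers and above 0 in 2, Mmp8 and Elane. Mmp8 was at 0.47, with all KO arrays above all WT arrays, and Elane at 0.20. The summed signal was 247 to 287 in KO and 317 to 383 in WT.

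Pf4 and Ppbp are stored in platelets and made by megakaryocytes, and Pf4 is also made by macrophages. Pf4 had levels of 7.27, 7.26 and 7.43 in KO and 7.42, 7.25 and 6.87 in WT, a difference of 0.14 ± 0.18 with a 95% interval from -0.30 to 0.58. Ppbp had levels of 4.23, 5.11 and 5.17 in KO and 4.94, 5.91 and 4.75 in WT, a difference of -0.36 ± 0.38 with an interval from -1.27 to 0.55. Both overlapped between genotypes. Of 12 megakaryocyte and platelet markers 8 could be tested and none passed in limma, at an unadjusted p under 0.05 either, with a summed signal of 33.9 to 38.6 in KO and 40.0 to 47.4 in WT; Itga2b, Gp1ba, Gp5 and Gp9 were each well above background on at most 1 array.

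Cxcl14, a ligand common in epithelia, and Cxcl12, the stromal ligand of Cxcr4 that holds blood progenitors in marrow, differed in opposite directions. Cxcl14 had levels of -1.23, -0.16 and -0.04 in KO and -1.80, -2.86 and -2.70 in WT. The groups were apart, with KO 947, on the slide of the WT arrays, the KO array nearest to WT. Its difference of 1.98 ± 0.40 missed the threshold (limma adjusted p = 0.0533) and was 1.23 with slide as a block. Without KO 947 it was 2.35 and passed (limma adjusted p = 0.0298), in a fit where genotype and slide coincide. Cxcl12 had levels of -7.40, -5.46 and -7.24 in KO, none of them well above background, and -2.76, -5.00 and -3.04 in WT, where all 3 arrays were. With each KO array set at the higher of its own value and its lowest level well above background, Cxcl12 was at least 4.44-fold lower in KO, with a limma adjusted p of 0.0756. It passed the filter through its WT arrays alone. A second Cxcl12 probe was well above background on 1 WT array and gave a bound of at least 1.16-fold lower in KO. Stromal markers stood beside it with all 8 tested differences below 0. Col1a1 passed at -5.62, Col1a2 at -5.55 and Sparc at -7.84, where 2.27% of all genes passed as lower. Col1a1 was well above background on 2 KO arrays, so the size of its fall is limited by the background level. Dcn overlapped between genotypes and did not pass (limma adjusted p = 0.694). The Col1a1 call was lost without WT 1, WT 2 or KO 948, and those of Col1a1 and Col1a2 with slide as a block. The summed signal of the 8 markers was 4.10 to 5.82 in KO and 10.9 to 40.9 in WT. In KO that sum was mostly Acta2, which did not pass (limma adjusted p = 0.121). The part of these markers in the Cxcl12 value was not tested. Over the 11 tested CXC ligands, 2 passed, beside 3.41% of all genes, and the median difference was 0.14. Groups did not overlap in 5, beside 26.9% of all genes, with 2 higher and 3 lower.

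Cx3cl1, or fractalkine, is a membrane-bound adhesion ligand that can be shed and is the sole known ligand of Cx3cr1. It had levels of -0.71, -0.25 and 0.28 in KO and 1.31, 0.94 and 1.42 in WT, without overlap. The difference was -1.45 ± 0.28, or 2.73-fold lower in KO (limma adjusted p = 0.0459), and the call was lost without WT 1, 2 or 3 or KO 948, at adjusted p-values up to 0.152. Cx3cr1 varied widely, at -1.04, -0.11 and 0.36 in KO and 0.12, -1.56 and 1.61 in WT, with an interval of the difference from -2.18 to 1.53. WT 2 was its lowest and WT 3 its highest array. A second Cx3cr1 probe, also well above background on all arrays, overlapped between genotypes and gave -0.99.

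**Figure D3:**
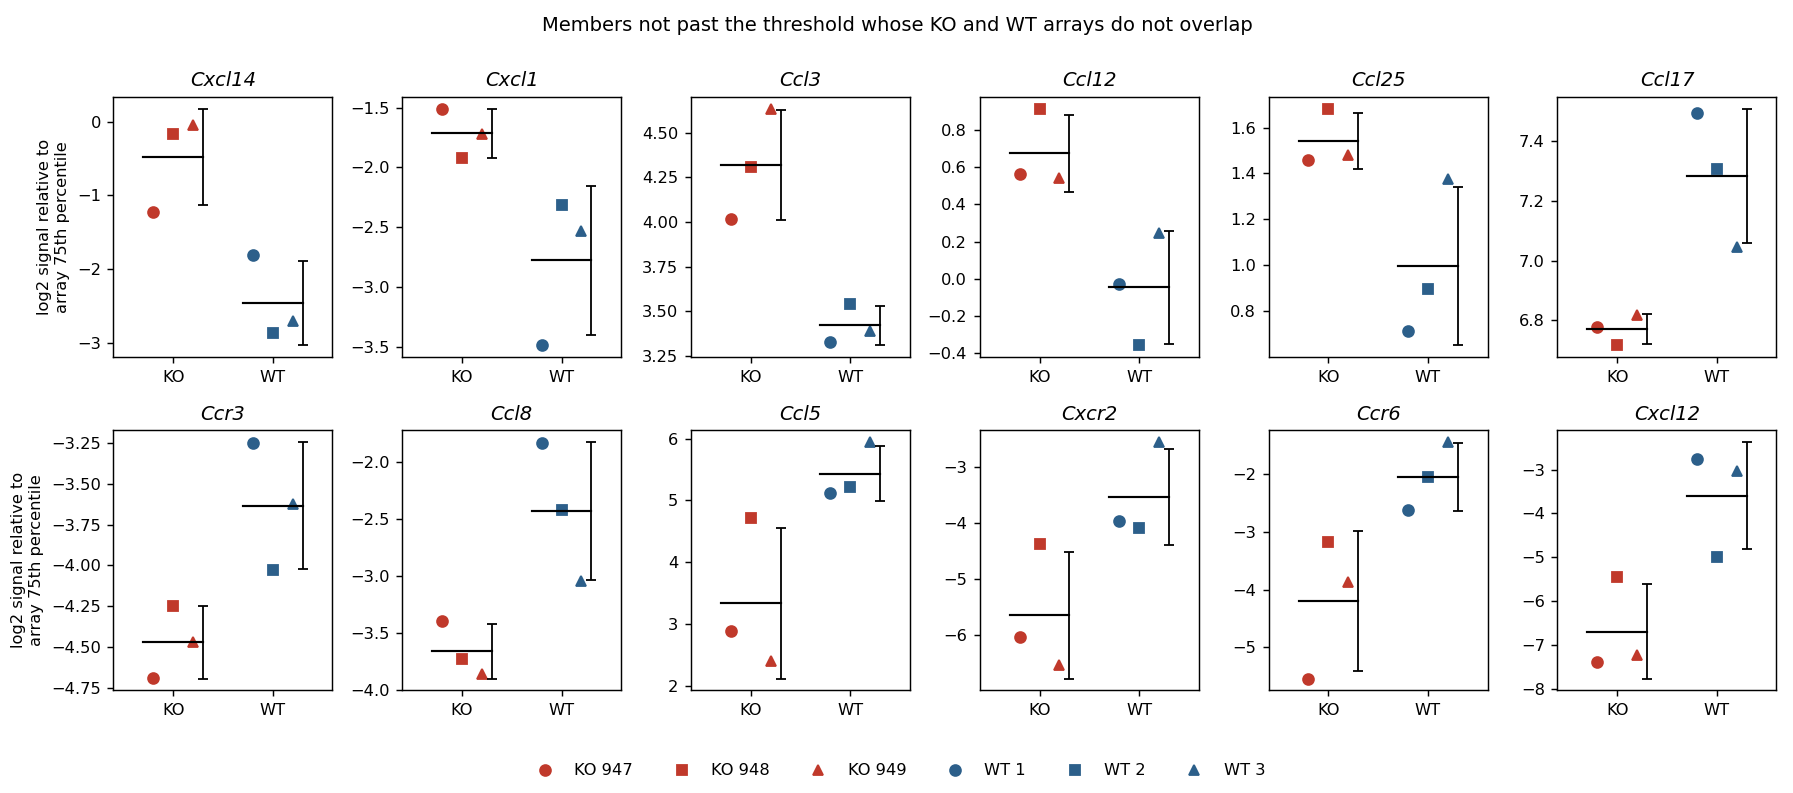
Levels (log2 signal over the array's 75th percentile) of the 12 members whose KO and WT arrays did not overlap but whose adjusted p missed the threshold, 1 panel per gene with its own vertical scale, points per mouse and bars for the mean ± SD. The 5 members higher in KO and the 7 lower in KO differ in spread, with KO 948 close to WT for Ccl5 and Cxcr2.

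Of the 9 receptors, Ccr7 passed, and it was lower in KO, as 2.27% of all genes were. Ccr7, the receptor for Ccl19 and Ccl21 that takes dendritic cells to lymph nodes, had levels of 1.26, 1.59 and 1.26 in KO and 3.49, 4.30 and 4.12 in WT. All KO arrays lay far below all WT arrays. The difference was -2.60 ± 0.24, or 6.06-fold lower in KO (limma adjusted p = 0.0093). Ccr6, the receptor for Ccl20 on dendritic cells and lymphocytes, had levels of -5.54, -3.17 and -3.87 in KO, where 2 arrays were well above background, and -2.63, -2.05 and -1.45 in WT. The groups were apart, and the difference of -2.15 ± 0.61 did not pass (limma adjusted p = 0.118). Ccr3, the eotaxin receptor of eosinophils, had levels of -4.69, -4.25 and -4.47 in KO and -3.25, -4.03 and -3.62 in WT, also apart, with a difference of -0.83 ± 0.24 (limma adjusted p = 0.116). Of 9 tested eosinophil, mast cell and basophil markers, Prss34 and Kit fell and none passed as higher, where 2.27% of all genes passed as lower and 1.14% as higher. Siglecf leaned the other way, at 0.47, with overlap. Prg2, Epx and Cpa3 varied widely among KO arrays and did not pass. No KO array had Mcpt8 well above background, so it passed the filter through its WT arrays alone. As a bound, Mcpt8 was at least 19.98-fold lower in KO. The calls of Prss34, Kit and Mcpt8 were lost with slide as a block and without at least 3 of the 6 arrays in turn. The summed signal of the 9 markers was 7.01 to 23.0 in KO and 25.6 to 55.3 in WT. In this sum the brightest genes, Prg2 and Siglecf, weigh most. Prg2 differed by -2.68 ± 1.18 and did not pass (limma adjusted p = 0.262). Cxcr3 and Cxcr4, the receptors for Cxcl10 and for Cxcl12, differed by 0.04 ± 0.18 and 0.06 ± 0.26, with 95% intervals from -0.40 to 0.47 and from -0.55 to 0.68. The 4 receptors without overlap were all lower in KO, where 13.5% of all genes lay wholly below WT. Of these receptors, Ccr6 and Cxcr2 had KO arrays that were not well above background. The median over the receptors was -0.33. Of 8 tested lymphocyte markers and 3 endothelial markers none passed in limma, and 1 lymphocyte marker and 0 endothelial markers had an unadjusted p under 0.05. The lymphocyte sum was 2.20 to 3.02 in KO and 2.80 to 3.52 in WT, and the endothelial sum 1.68 to 2.10 in KO and 1.81 to 2.35 in WT.

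Slide moved the calls. With slide as a block, Ccl7 kept its call (difference 2.49, limma adjusted p = 0.0450), where 0.534% of all genes passed. The others kept their sign and lost their call in that limma fit. Ccr7 stood at -2.71 (adjusted p = 0.0528), Cxcl16 at -2.01 (adjusted p = 0.0534), Ccl2 at 1.32 (adjusted p = 0.0534) and Cx3cl1 at -1.93 (adjusted p = 0.0661). Cxcl10 stood at -1.84 (adjusted p = 0.164) and Ccl22 at -1.21 (adjusted p = 0.194). These differences are those of KO 947 against the WT arrays of its slide, and with those 4 arrays alone none of the members passed in limma (Ccl7 adjusted p = 0.0661), where 0.153% of all genes did; 16 members had an unadjusted p under 0.05 there, beside 15.1% of all genes, and 16 with the block, beside 18.0% of all genes. Of the marker calls, Ciita and Sparc kept theirs with the block, and those of the macrophage, granulocyte and eosinophil, mast cell and basophil lists were lost, as were Cd83, H2-Aa and Cd209a and Col1a1 and Col1a2.

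Neighbouring genes did not always go together. On chromosome 8, Ccl22, Cx3cl1 and Ccl17 follow each other in the annotation with no other coding gene between them, and the differences of all 3 were below 0 without overlap, at -1.63, -1.45 and -0.51. On chromosome 11, Ccl2, Ccl7, Ccl11, Ccl12 and Ccl8 stand in that order. Ccl2 and Ccl7 rose, Ccl12 was at 0.72, and Ccl8, at the end, was at -1.23. A second run of neighbours there holds Ccl5, Ccl9, Ccl6, Ccl3 and Ccl4, where Ccl5 was at -2.09 and Ccl3 at 0.90 with Ccl9, Ccl6 and Ccl4 near 0. On chromosome 5, Cxcl9 and Cxcl10 have 1 other coding gene between them and were at -0.92 and -2.23.

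**Figure D4:**
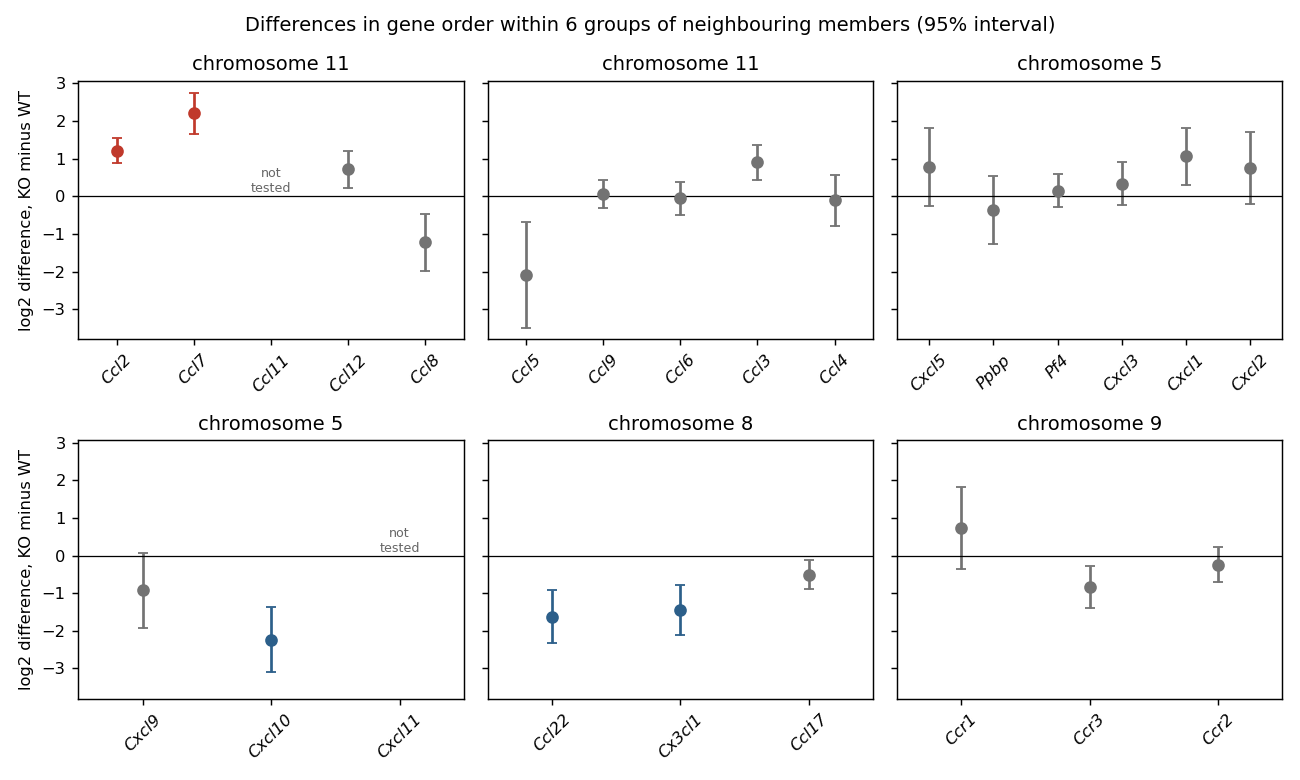
KO minus WT differences (log2) of members that neighbour each other, in gene order within each of 6 groups, with 95% intervals from limma and members past the adjusted threshold in red (higher) or blue (lower). All 3 members of the Ccl22, Cx3cl1 and Ccl17 group lie below 0, while the group of Ccl2, Ccl7, Ccl12 and Ccl8 lies on both sides.

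Other genes of the pathway were followed through 4 lists. Over all tested genes 3.41% passed, and 20.4% had an unadjusted p under 0.05 in limma. Of 24 further chemokine ligands and receptors 12 could be tested and 1 passed, with a median difference of -0.25. That gene was Ackr2, a decoy receptor that clears inflammatory CC chemokines, which was at least 1.58-fold lower in KO (limma adjusted p = 0.021), a bound because no KO array was well above background, so that it passed the filter through its WT arrays alone. Of 28 genes that carry or dampen receptor signals, G proteins, arrestins, receptor kinases, Rac regulators and others, 1 passed, with a median of 0.00. That share is near the one over all genes. Rgs16, which shortens G-protein signals, fell by 2.13 ± 0.33 (limma adjusted p = 0.029). None of 11 proteases that cut or shed chemokines passed in limma, where 5 had an unadjusted p under 0.05, with a median of 0.02. The largest difference above 0 was 0.60, for Adam10, which sheds Cx3cl1 and Cxcl16, and the largest below 0 was -2.30, for Ctsg (cathepsin G). Of 19 transcription factors known to act on chemokine genes, 2 passed, Nfkb2, which fell by 0.92 ± 0.16 (limma adjusted p = 0.040), and Relb, which fell by 0.82 ± 0.15 (limma adjusted p = 0.042), the partners that form the non-canonical NF-kB dimer. Their list had a median of -0.26. Without single arrays these 4 calls were lost in 3 or more of 6 limma fits each, with adjusted p-values up to 0.0910 for Ackr2, 0.105 for Rgs16, 0.140 for Nfkb2 and 0.150 for Relb; KO 947 was the array whose absence kept all 4. With slide as a block none of the 4 lists had a call in limma, where Rgs16 stood at -2.16, Nfkb2 at -0.82 and Relb at -0.69.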

How the data were processed

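Total RNA of 6 macrophage cultures, 3 KO and 3 WT, was hybridised to one-colour Agilent arrays designed on mm9. The spot intensity values in the deposited files had been corrected for background and spatial trend, per the file headers, by Feature Extraction 10.7.3.1 (9.1 per the submitters' processing notes). Flags for outlier, saturated and background-level spots come from the same deposited files. A deposited table holds the authors' log2 values of 3215 probes that separate the genotypes and served as an alternative only. Scaling between arrays was not applied, per the file headers.

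The log2 of the array's 75th percentile was subtracted from every log2 spot signal, outlier spots were left out and spots of a probe averaged. Probes, 26413 of 55681, received a gene name by matching transcript accessions to a RefSeq table (GRCm38.p6). A probe had to be well above background on 3 of 6 arrays, and the brightest such probe stood for its gene. Genotypes were compared with limma 3.58.1 in R 4.3.3 (lmFit, eBayes, no covariate, two-sided), with Benjamini-Hochberg adjustment over 15736 genes. Of these genes, 35 had at least 1 missing value. The fit was tested on simulated data.

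The members, the lists and the tests were chosen with earlier results of these data known. All members were accounted for. Of the pathway lists, genes past the threshold were named, or the largest rise and fall where none passed; of the marker lists, genes past the threshold and defining markers. Ccl1, Ccl20, Ccr4, Cxcr6, Xcr1, Adgre1, Csf1r and C1qa fall outside that rule and were chosen after their values were seen. The same holds for Mmp8, Elane, Siglecf, Prg2, Epx, Cpa3, Dcn and Acta2. Alternatives covered scaling, background correction, filters, slide, sex, probe choice, outlier spots, eBayes settings, the threshold, the authors' table and each array left out. Protein sequences had been planned and were not used here. A gene of one list is not reported here.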

Additional observations from a re-analysis of the deposited data

How the results depend on the processing

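All 7 members past the threshold also passed with the mean of the gene's probes, with outlier spots kept, after normexp background correction (with Cxcl14 as an eighth) and with the filter on all 6 arrays (with Ccl3 and Cxcl14, 9 in all). Of the 7, 6 passed with sex as a covariate, 5 after quantile normalization and 5 after scaling to the array median, where Cxcl14 also passed. The count moved to 4 (2 lower) with no filter, to 1 (1 higher, 0 lower) with slide as a fixed block, to 0 (0 higher, 0 lower) on the slide with both genotypes, to 4 (2 lower) with slide as a random block, to 3 (1 higher, 2 lower) on arrays labelled male, to 11 (4 higher; the 7 and Ccl3, Ccl17, Cxcl12 and Cxcl14) with trend and robust eBayes and to 11 (4 higher) at an adjusted p under 0.1. The lower calls alone moved to 3 under quantile and under median scaling, and the higher calls to 4 with the filter on all 6 arrays. Leaving out 1 array gave 3 to 9 members, 1 to 4 higher and 2 to 5 lower. Median scaling shifted the median of all genes to 0.21, against -0.01, so differences there are relative to that shift. The authors' deposited table holds 8 members, all past the threshold in a limma fit of it, and was chosen to separate the genotypes, so it is no independent evidence.

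Of 651 differences of single members under alternatives, 34, in 9 members that did not pass, changed sign. Median scaling turned Ccl4 to 0.11, Ccl6 to 0.16 and Ccl24 to 0.11; Ccl6 was 0.019 after quantile normalization and 0.10 after normexp. With slide as a fixed block, and on the slide with both genotypes, Ccl6 was 0.0012, Ccl9 -0.080, Ccl24 0.55 and Cxcr4 -0.43; with slide as a random block Ccl24 was 0.12 and Cxcr4 -0.10. On arrays labelled male, Ccl9 was -0.075, Ccl24 0.16, Pf4 -0.071, Ccr1 -0.010, Cxcr4 -0.013 and Cx3cr1 0.14. Without single arrays the differences ran from -0.28 to 0.19 for Ccl4, -0.19 to 0.069 for Ccl6, -0.021 to 0.14 for Ccl9, -0.44 to 0.15 for Ccl24, -0.015 to 0.26 for Pf4, -0.081 to 0.19 for Cxcr3, -0.13 to 0.31 for Cxcr4 and -1.13 to 0.45 for Cx3cr1.

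Of the lists, the other chemokine genes had 1 call and 0 after quantile normalization. With slide as a fixed block and on the slide with both genotypes the other chemokine genes, the signalling genes and the transcription factors had 0 limma calls, at 2 of 12, 5 of 28 and 7 of 19 genes with an unadjusted p under 0.05 under the block, beside 18.0% of all genes. With slide as a random block the signalling genes and the transcription factors had 0, and under median scaling the transcription factors had 0. Without single arrays the counts ran from 0 to 1, 0 to 1 and 0 to 2. The proteases had 0 in every such fit. The cause was not tested. No paired analysis was possible because the genotypes share no replicate numbers. Dim members such as Cxcl12, Cxcr2 and Ccr6 lie near the background level, where the arrays limit what can be measured.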

Other observations

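Ccl1, a ligand of Ccr8, had levels of -1.11, -1.22 and -0.99 in KO and -0.53, -4.22 and -4.68 in WT, so WT 1 was the highest of all arrays and the other WT arrays the lowest, and its difference did not pass (limma adjusted p = 0.319). Without WT 1 the difference was 3.34 and passed (limma adjusted p = 0.0130), the 1 call of the list of other chemokine genes in that fit. Ccl20, the ligand of Ccr6, and Xcr1 were not well above background on any array.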
